A study of Mus musculus with 4 samples.

Results

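The clustered protocadherins are cell surface adhesion proteins encoded side by side in the alpha, beta and gamma clusters. The members were the protein-coding genes of the mouse build mm10 whose symbols begin with Pcdha, Pcdhb or Pcdhg, in a span of 1300 kb on chromosome 18. They run from 36930285 to 37841873, and all positions given are on this chromosome and build. They number 57 of the 21883 protein-coding genes on chromosomes 1 to 19, X and Y, with 14 genes in the alpha cluster, 22 in the beta cluster and 21 in the gamma cluster. The choice used symbols and positions, and no measured value, but earlier results of these data were known when it was made. The pseudogene Pcdhgb8 and the gene models Gm37013, Gm38666 and Gm38667, which run from the alpha cluster to the end of the gamma cluster, were not members.

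The study measured open chromatin by bulk ATAC-seq, in which the transposase Tn5 cuts accessible DNA. The cells were mouse embryonic fibroblasts of the line iMGT-Myh6-eGFP-MEF. This line turns on Mef2c, Gata4 and Tbx5 (MGT), the factors that start conversion of fibroblasts towards cardiomyocytes, when doxycycline is added. The siChst7 group (2 libraries) was transfected with siRNA against Chst7, a Golgi enzyme that puts sulfate on chondroitin chains, and the siControl group (2 libraries) with control siRNA. Both groups were transfected a day before MGT induction, received doxycycline at 1 μg/mL and were harvested at day 1, so both carry the induced factors and neither shows uninduced cells. All 4 libraries come from 1 cell line. The labels call the replicates biological without saying that they are separate cultures, so p-values measure the spread between these libraries only. No RNA was analysed here, so the knockdown of Chst7 was not checked, and an open site does not say that a gene is transcribed.

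As background, each alpha and gamma gene joins its own variable first exon to constant exons shared by its whole cluster, whereas each beta gene is a coding exon by itself. Neurons switch on a small, cell-specific choice of these promoters, in step with DNA demethylation, binding of CTCF and looping by cohesin to distant enhancers, and the resulting proteins bind their own kind on neighbouring membranes, which lets a neuron tell its own branches from those of others. The C-type genes at the ends of the alpha and gamma clusters (Pcdhac1, Pcdhac2, Pcdhgc3, Pcdhgc4 and Pcdhgc5) are chosen less randomly, and Pcdhgc3 is found in many tissues besides brain.

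The libraries listed 74402 and 66165 peaks with siChst7 and 73902 and 75696 with siControl. Read totals were not given, but the background pileup (overlapping fragments expected at a position), solved from weak peaks, was 2.03 and 1.48 with siChst7 and 1.92 and 1.82 with siControl, so siChst7 replicate 2 was the shallowest library. The labelled cell type was checked by peaks within 1 kb of gene starts. Either gene end was used for 6 fibroblast, 3 neuronal, 2 endothelial, 1 immune and 2 epithelial genes. A peak was listed in all 4 libraries at 11 of 14 fibroblast genes, against 5 of 14 neuronal, 1 of 8 cardiomyocyte, 0 of 5 endothelial, 0 of 5 immune and 1 of 5 epithelial genes. The same share over all protein-coding genes was 54.1% by the promoter table, and 52.7% for genes outside it, which were counted at either gene end. The fibroblast genes without a peak in all 4 were Col3a1, Dcn and Lum. The neuronal genes with a peak in all 4 were Map2, Gad1, Elavl4, Syt1 and Syn1, and 8 of the 14 had none in any library. Myh6, the cardiac myosin gene that drives the line's reporter, had a peak in 3 libraries. Its −log10 q was 64.3 in siChst7 replicate 1 and 63.2 and 53.6 with siControl, far from weak. Why siChst7 replicate 2 listed no peak within 1 kb was not tested.

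Most protocadherin starts had no open site that was strong enough to be listed. Of the 57 members, 6 had a peak within 1 kb of the start in all 4 libraries, or 10.5%, against 54.1% of the 17491 protein-coding genes whose start was known from the promoter table. The measures differ, since a peak at any start given by that table counted, whereas members were counted at their lower coordinate only. Another 10 had a peak in 1 to 3 libraries and 41 had none in any. The 3 clusters differed in these counts. No alpha gene had a start peak in any library. In the beta cluster 4 of 22 genes (18.2%) had one in all 4 libraries, 6 in some and 12 in none. In the gamma cluster 2 of 21 genes (9.52%) had one in all 4, 4 in some and 15 in none. The genes of a cluster neighbour each other and share sequence, so these counts were not tested over genes. By library, 9 and 8 members had a start peak with siChst7, against 14 and 13 with siControl.

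**Figure D1:**
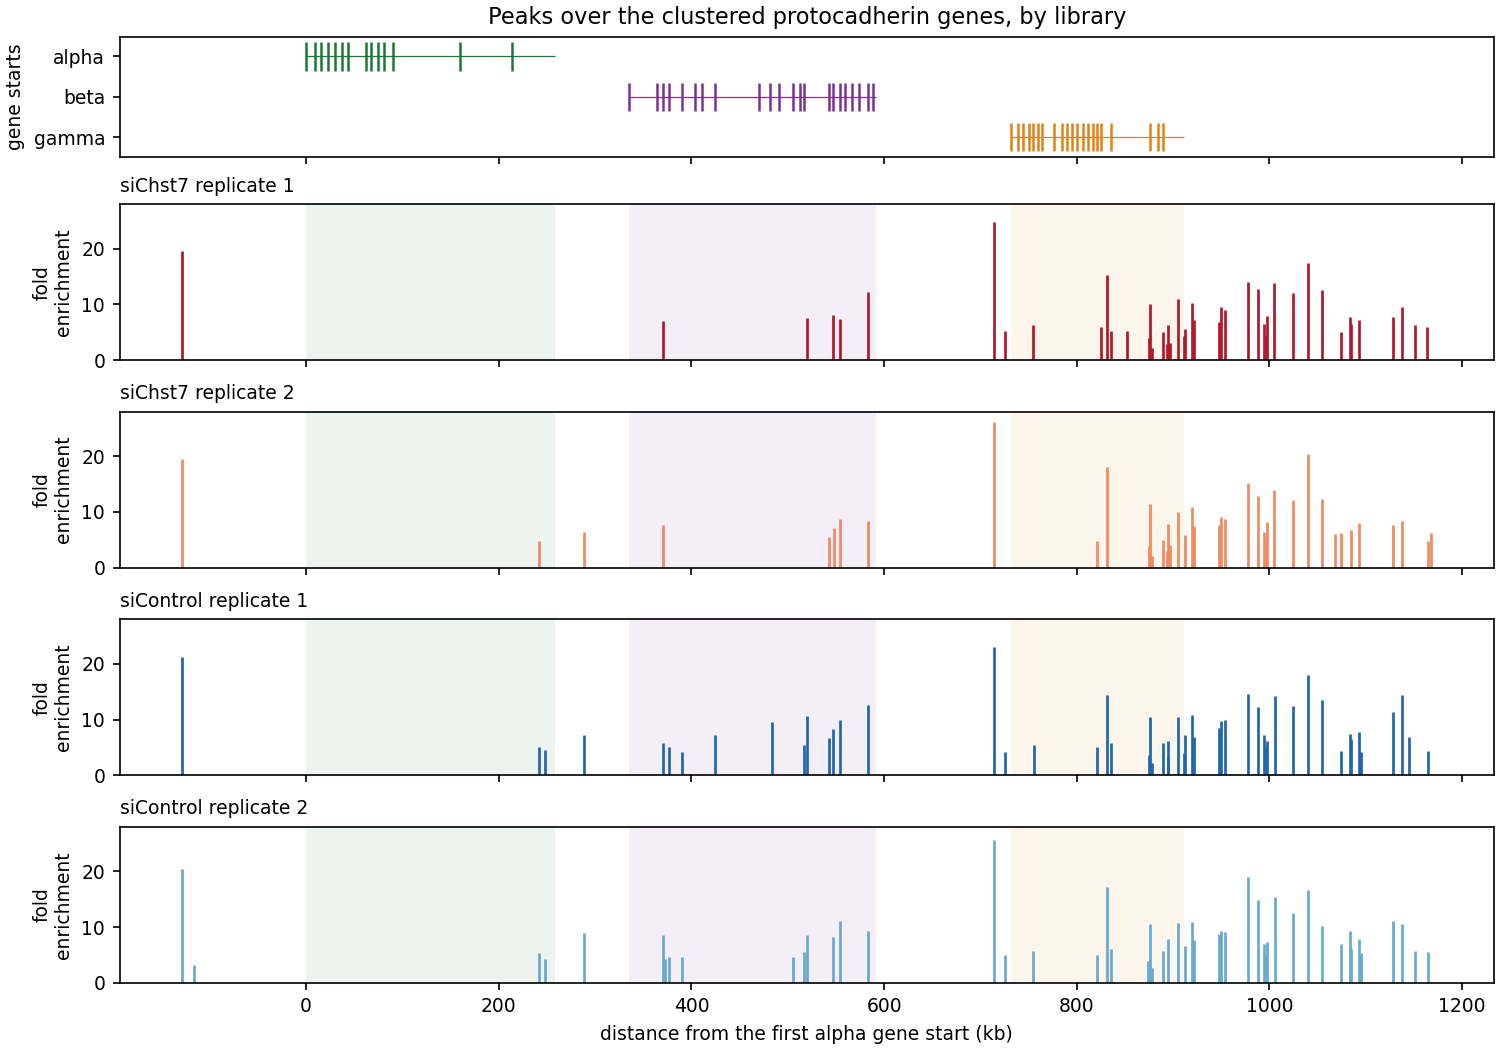
Summit positions of all listed peaks over the locus, as distance in kb from the first alpha gene start (horizontal), with the authors' fold enrichment as bar height, one row per library and gene starts in the top row. The shaded alpha cluster holds at most 2 peaks in any library, the beta cluster 5 and 5 peaks with siChst7 and 11 and 10 with siControl, and peaks are densest in and past the gamma cluster.

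The alpha cluster was nearly empty of peaks over its 258.6 kb. Its 12 numbered genes (Pcdha1 to Pcdha12) and the C-type genes Pcdhac1 and Pcdhac2 had no start peak, and the nearest region lay between 28.6 and 178 kb from their starts, with a median of 149 kb. Regions here are peaks of the 4 libraries merged where they share at least 1 bp. Only 2 regions lay within the alpha span, both past the start of Pcdhac2, in the stretch shared by all alpha genes. The region at 37172327 to 37172619 had a fold enrichment of 4.83 in siChst7 replicate 2 and none in replicate 1, against 5.14 and 5.33 with siControl. The region at 37178378 to 37178711 was listed with siControl only, at fold enrichments of 4.46 and 4.26 and −log10 q values of 4.92 and 4.33. Both are weak peaks. Fold enrichment and −log10 q are the authors' own values per peak, and are used here to describe and rank peaks within a library. Fold enrichment was read as the pileup at the summit plus 1 over its local background plus 1. The −log10 q gives the significance of that excess.

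The beta cluster held 13 regions over 256.4 kb, or 5.07 per 100 kb, and 10 of them lay at a member's start. The open starts were clear at 4 genes, all listed in every library. Pcdhb21 (37513652 to 37516363) had fold enrichments of 12.3 and 8.46 with siChst7, against 12.7 and 9.23 with siControl. Its summit pileup was 38 and 20 fragments with siChst7 and 36 and 25 with siControl. The replicate 1 libraries of both groups were the high ones, and the groups overlapped. Pcdhb16 (37477768 to 37483038) had 8.03 and 7.06 with siChst7, against 8.33 and 8.16 with siControl, a narrow spread in which both siControl values were slightly above both siChst7 values. Pcdhb3 (37300799 to 37304585) had 6.94 and 7.65 with siChst7, against 5.83 and 8.52 with siControl, and the siControl libraries lay on either side of the siChst7 ones.

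Pcdhb17 (37485021 to 37488290) was the start in the beta cluster whose groups stood furthest apart among those open in all 4 libraries. Its fold enrichment was 7.36 and 8.81 with siChst7, against 9.94 and 11.2 with siControl, and its summit pileup was 24 and 23 fragments with siChst7, against 34 and 37 with siControl. To set libraries side by side, fold enrichment was ranked within each library over the 55924 regions listed in all 4. Pcdhb17 stood at the 32.9 and 48.4 percentiles with siChst7, against 54.0 and 62.5 with siControl, a mean difference of −17.6 points. Both siChst7 values were lower than both siControl values. Over all shared regions 18.4% were lower and 19.5% higher in both siChst7 libraries, so that such an order is common. Pcdhb16 stood at 39.4 and 31.7 with siChst7, against 40.4 and 37.8 with siControl, so that its groups overlapped by this measure.

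A further 3 beta starts were listed in both siControl libraries and in neither siChst7 library. This is 13.6% of the beta genes and 5.26% of all 57 members, against 0.286% of gene starts in the background. No alpha or gamma start showed this pattern. The opposite pattern was shown by 0 members and 0.0743% of gene starts. Pcdhb14 (37447657 to 37451094) had fold enrichments of 5.47 and 5.57 with siControl, at −log10 q values of 7.49 and 8.34. Pcdhb4 (37307455 to 37311173) had 5.14 and 4.62, at −log10 q values of 6.62 and 5.16. Pcdhb5 (37320381 to 37323913) had 4.11 and 4.62, at −log10 q values of 4.11 and 5.16. All 3 are weak peaks, with 11 to 17 fragments at the summit, where the lowest pileup listed at the genome-wide background was 9 and 8 fragments with siChst7 and 9 and 8 with siControl. A start with no listed peak is therefore not shown to be closed, and where the local background is higher, more fragments than this can go unlisted.

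One-group calls were more frequent among weak regions of the whole genome. Of all regions whose highest −log10 q was under 10, 3% were listed by both siChst7 libraries alone and 5.87% by both siControl libraries alone, against 1.24% and 2.84% of regions of any strength. In the beta cluster 3 of 5 such regions were siControl-only. At a −log10 q of at least 10 none of the 3 starts was left, and when every list was shortened to its strongest 66103 peaks, the length of the shortest list, Pcdhb14 alone was left. Pcdhb5 drops out at a −log10 q of at least 5, and Pcdhb14 drops out when peaks narrower than 200 bp are left out, since its peak in siControl replicate 1 was 185 bp wide.

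The remaining beta starts with a peak each appeared in 1 or 2 libraries. Pcdhb15 had a fold enrichment of 5.57 in siChst7 replicate 2 and 6.73 in siControl replicate 1. Pcdhb8 had 7.20 in siControl replicate 1 and Pcdhb12 had 4.62 in siControl replicate 2, with no listed peak in the other libraries. The beta genes that stayed without a start peak included Pcdhb1, Pcdhb2, Pcdhb22 and all of Pcdhb6, Pcdhb7, Pcdhb9, Pcdhb10, Pcdhb11, Pcdhb13, Pcdhb18, Pcdhb19 and Pcdhb20.

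**Figure D2:**
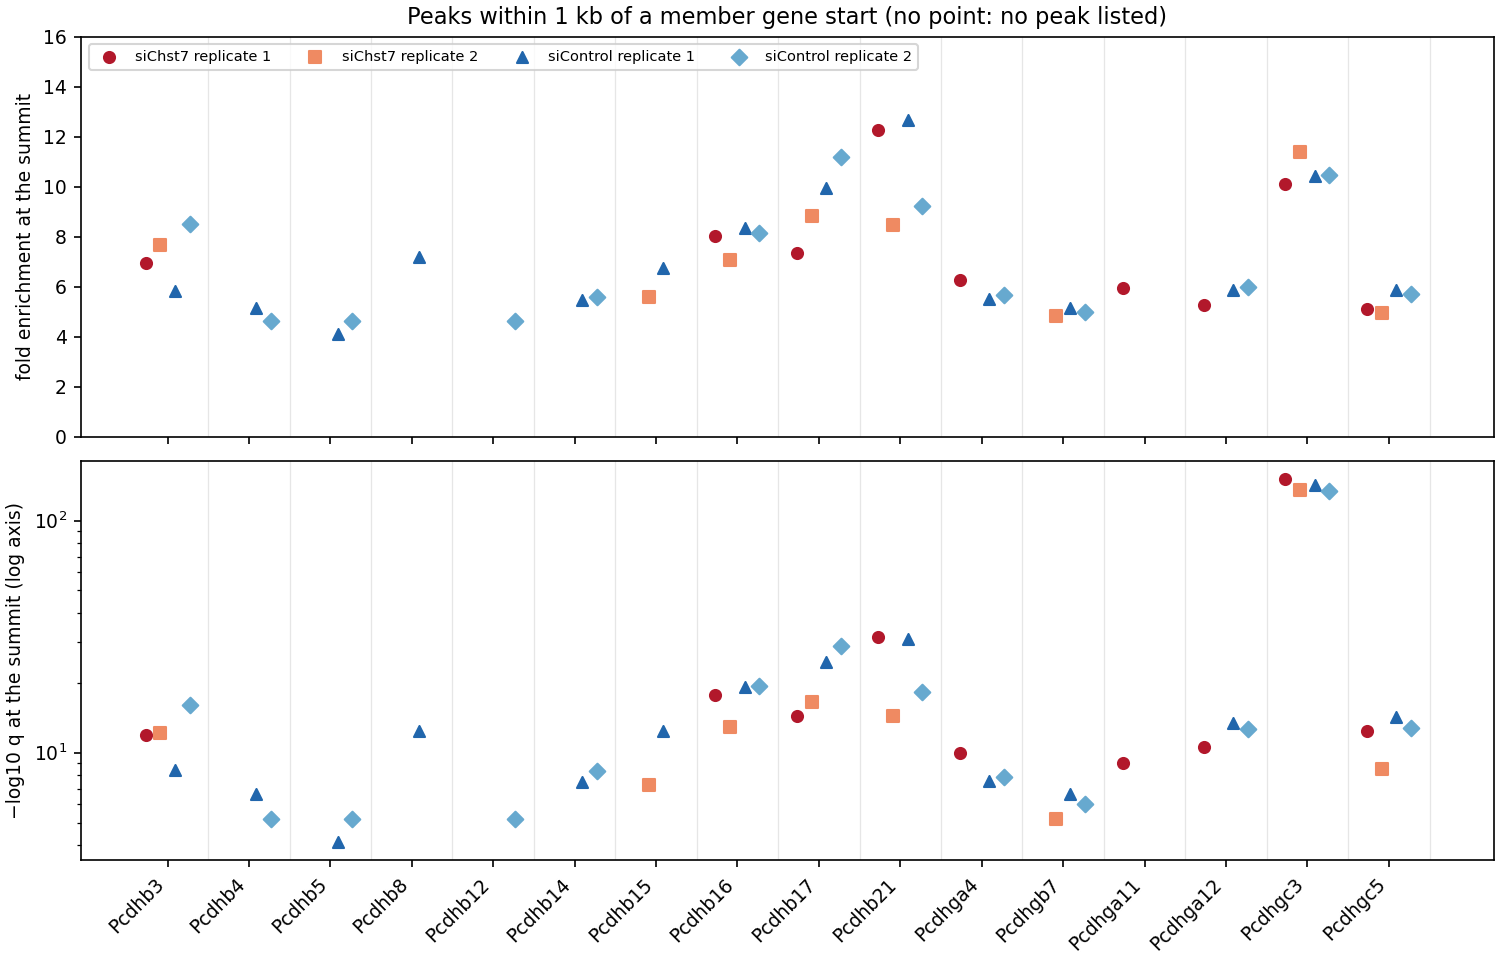
Fold enrichment (top, linear axis) and −log10 q (bottom, log axis) of the peak at each member start that had one, with 1 point per library and no point where no peak was listed. Pcdhb4, Pcdhb5 and Pcdhb14 have siControl points only, and Pcdhgc3 stands apart in −log10 q, at 135 to 152 in the 4 libraries, while its fold enrichment is like that of Pcdhb17 and Pcdhb21.

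Over the whole beta cluster, 5 and 5 peaks were listed with siChst7, against 11 and 10 with siControl. Scaled to list length this was 0.715 ± 0.0592 peaks per 10000 with siChst7, against 1.41 ± 0.118 with siControl (SD, n = 2 each), a difference of −0.692. The groups did not overlap, and a two-sided exact permutation test gave p = 0.333, the smallest that 2 libraries against 2 allow. This test of a single cluster was not in the planned design. The alpha cluster, with 0 and 1 peaks with siChst7, against 2 and 2 with siControl, also gave p = 0.333 by the same permutation test. With lists of equal length the beta difference was −0.454, from 5 and 5 peaks with siChst7, against 10 and 6 with siControl. At a −log10 q of at least 10 it was −0.216, from 5 and 4 peaks with siChst7, against 7 and 5 with siControl. There siChst7 replicate 1 and siControl replicate 2 listed the same number. The background pileup was 2.03 and 1.48 with siChst7, the highest and the lowest of the 4 libraries, against 1.92 and 1.82 with siControl. The part of depth in the beta difference was not tested. In bulk cells, fewer cells with an open site and a less open site per cell cannot be told apart. How the authors' alignment treated reads that match several near-identical protocadherin genes is not given in the sources used here, and its part in these counts was not tested.

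**Figure D3:**
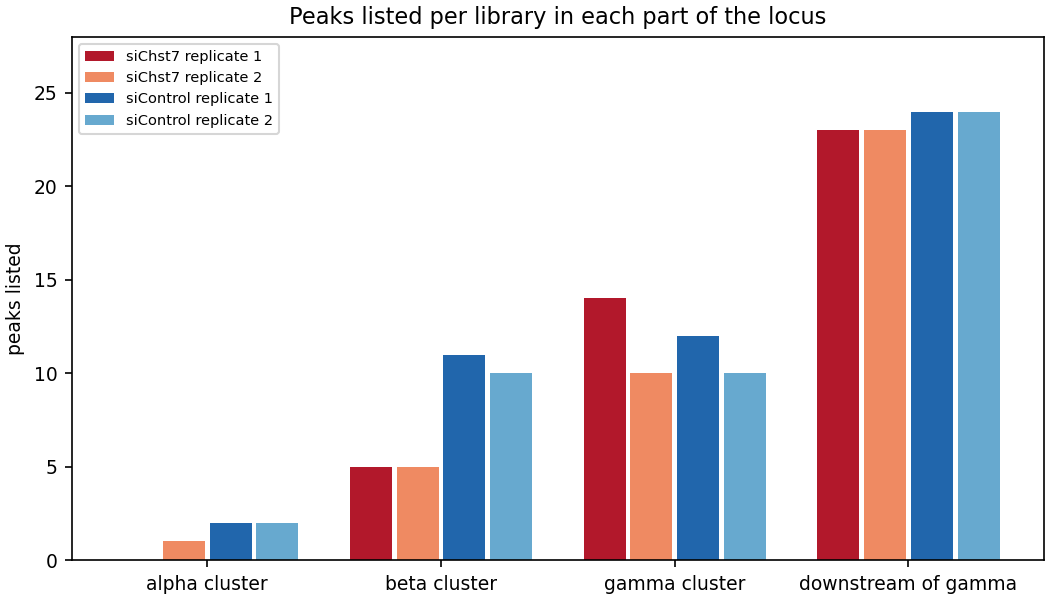
Number of peaks listed per library (bars, from 0) in the alpha, beta and gamma clusters and in the stretch downstream of the gamma cluster. The beta cluster has 5 and 5 peaks with siChst7 and 11 and 10 with siControl, while the gamma cluster has 14 and 10 with siChst7 and 12 and 10 with siControl.

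The gamma cluster was the densest of the 3, with 15 regions over 180.1 kb, or 8.33 per 100 kb, but only 6 of them lay at member starts. Peaks numbered 14 and 10 with siChst7, against 12 and 10 with siControl, and the groups overlapped (two-sided exact permutation p = 0.667 for the difference of 0.224 per 10000 peaks). Both gamma starts that were open in all 4 libraries belong to C-type genes. Pcdhgc3 (37806410 to 37841873) had fold enrichments of 10.1 and 11.4 with siChst7, against 10.4 and 10.5 with siControl, and −log10 q values of 152 and 135 with siChst7, against 142 and 135 with siControl. Its summit pileup of 243 and 200 fragments with siChst7, against 222 and 210 with siControl, was far above that of any other member. Its local background was also the highest, at 23.2 and 16.6 fragments with siChst7 and 20.4 and 19.1 with siControl, so that its fold enrichment does not stand out. The peak was wide, at 852 and 758 bp with siChst7, against 806 and 1211 bp with siControl. The groups overlapped in fold enrichment and in −log10 q.

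Pcdhgc5 (37819546 to 37841873) was open at a lower level, with fold enrichments of 5.11 and 4.95 with siChst7, against 5.86 and 5.72 with siControl. Its summit pileup was 31 and 21 fragments with siChst7 and 31 and 28 with siControl. Among shared regions it stood at the 12.2 and 11.3 percentiles with siChst7, against 18.1 and 16.8 with siControl, so both siChst7 values were lower, by a mean of 5.68 points. Pcdhgc4 (37815079 to 37841873), which lies between these 2 open starts, had no peak in any library, and the nearest region was 4.1 kb away. Of the 5 C-type genes, 2 were thus open in all 4 libraries and 3 in none.

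The 18 other gamma genes had no start open in all 4 libraries. Pcdhga12 (37765580 to 37841873) had fold enrichments of 5.25 in siChst7 replicate 1, against 5.85 and 6.0 with siControl. Pcdhga4 (37685237 to 37841870) had 6.28 in siChst7 replicate 1, against 5.49 and 5.68 with siControl. Pcdhgb7 (37751619 to 37841870) had 4.83 in siChst7 replicate 2, against 5.14 and 4.97 with siControl. Pcdhga11 (37755773 to 37841873) had 5.95 in siChst7 replicate 1 only. Each of these 4 starts lacked a listed peak in 1 siChst7 library, and none was confined to siControl. Without siChst7 replicate 2, the shallowest library, Pcdhga4 and Pcdhga12 joined the C-type starts, which made 4 gamma starts open in all remaining libraries. The other 14 had no start peak in any library.

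The strongest region of the gamma cluster by fold enrichment was at no member. It lay at 37761316 to 37761924, beside the start of the transcribed pseudogene Pcdhgb8 (37761801 to 37840489), between Pcdhga11 and Pcdhga12. Its fold enrichment was 15.3 and 18 with siChst7, against 14.5 and 17.1 with siControl, so the groups overlapped, and its −log10 q was 64.7 and 62.8 with siChst7 and 62.5 and 69.9 with siControl. Past the start of Pcdhgc5, in the stretch shared by all gamma genes, a region at 37835227 to 37836296 had 10.9 and 10.1 with siChst7, against 10.5 and 10.7 with siControl. The region at 37824986 to 37825809 had 6.37 and 7.84 with siChst7, against 6.14 and 7.86 with siControl. Both were near equal in the groups by fold enrichment. By rank among shared regions the first stood at the 65.0 and 59.7 percentiles with siChst7, against 58.7 and 59.1 with siControl, without overlap. The region at 37826401 to 37826787 was the only one of the locus listed by both siChst7 libraries and no siControl library, with fold enrichments of 3.07 and 3.99 and −log10 q values of 4.09 and 5.89, and at a −log10 q of at least 5 its peak in siChst7 replicate 1 dropped out.

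Among starts with a peak, the gamma median of the fold enrichment percentile was below the beta median in every library. The order of the medians by −log10 q varied between libraries. Single gamma starts could be higher, as Pcdhgc3 stood at 67.9 and 74.3 with siChst7 and 67.5 and 67.6 with siControl. Over the genes with a start peak, the median percentile of fold enrichment among all peaks of a library averaged 28.1 ± 6.77 in the gamma cluster and 43.6 ± 5.20 in the beta cluster (SD, n = 4 libraries), and the gamma median was lower in 4 of 4 libraries. The difference was −15.5 points (two-sided exact sign-flip permutation test, p = 0.125, the smallest that 4 libraries allow). For −log10 q the percentiles averaged 26.1 ± 5.90 in the gamma cluster and 31.1 ± 3.79 in the beta cluster, a difference of −5.06 points with gamma lower in 2 of 4 libraries (exact p = 0.5). The median local background averaged 3.76 ± 0.336 fragments at gamma starts, against 1.93 ± 0.255 at beta starts. It was higher at gamma starts in 4 of 4 libraries (exact sign-flip p = 0.125). Pcdhga4, Pcdhgb7 and Pcdhga11 nevertheless lay at the genome-wide background of their libraries, at 1.48 to 2.03 fragments. The median summit pileup was on average 3.75 fragments higher at gamma starts (exact sign-flip p = 0.375). These medians rest on 3 to 5 gamma genes and 4 to 9 beta genes per library, those whose start was listed, and say nothing of the others. No median could be formed for the alpha cluster.

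**Figure D4:**
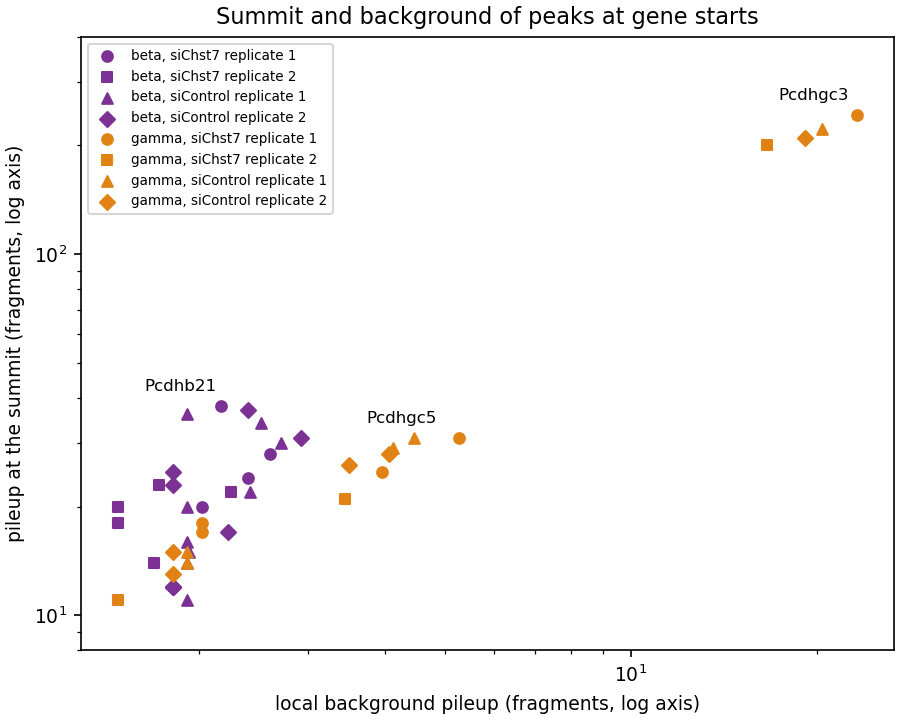
Pileup at the summit against local background pileup, both in fragments on log axes, for each start peak of a beta or gamma gene in each library. Beta starts lie at backgrounds of 1.48 to 2.92 fragments, while Pcdhgc5 and Pcdhgc3 lie at higher backgrounds, Pcdhgc3 with 200 to 243 fragments at the summit.

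The peaks sat on the starts themselves. Of the 44 start peaks counted over members and libraries, 41 had their summit within 250 bp of the gene start, with a median of −36.5 bp, where negative means before the start. All 26 beta summits lay between −171 and 145 bp, with a median of −27 bp. The 18 gamma summits lay between −246 and 286 bp, with a median of −68 bp. At Pcdhgc3 the summit was at −89 and −87 bp with siChst7 and −94 and −89 bp with siControl. At Pcdhb17 it was at −69 and −70 bp with siChst7 and −75 and −70 bp with siControl. Pcdhga12 was an exception, with its summits 262 to 286 bp after the start, beyond 250 bp in every library that had one. The start of a member is taken as its lower coordinate, since alpha genes share their upper end within 1240 bp and gamma genes within 10 bp.

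**Figure D5:**
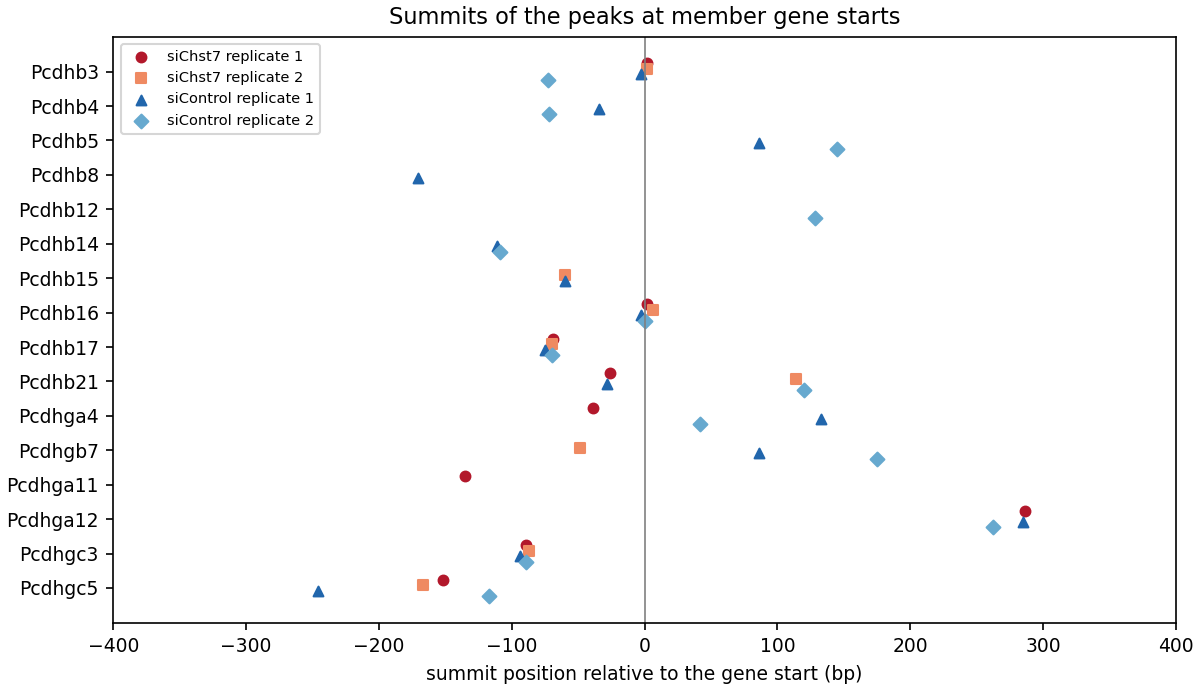
Position of the summit relative to the gene start in bp (horizontal, 0 at the start, negative before it) for each member with a start peak, with 1 point per library. Summits of Pcdhb16, Pcdhb17 and Pcdhgc3 fall within 10 bp of each other in the 4 libraries, while those of Pcdhga4 and Pcdhgb7 scatter over both sides of the start.

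Outside the clusters the locus was open at several of its neighbours. Slc25a2 (37637378 to 37638723), beside Taf7, had no peak at either end in any library. The 3 strongest regions of the span by fold enrichment were no protocadherin promoters. The region at 37643853 to 37644585, at the upper end of Taf7, a subunit of the general transcription factor TFIID that lies between the beta and gamma clusters, had 24.7 and 26.2 with siChst7, against 23.1 and 25.6 with siControl. The region at 36801464 to 36802156, at the vault RNA gene Vaultrc5, had 19.6 and 19.4 with siChst7, against 21.2 and 20.5 with siControl. The region at 37969343 to 37970293, at Fchsd1, had 17.4 and 20.4 with siChst7, against 17.9 and 16.7 with siControl. All 3 were listed in every library.

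The 258.1 kb downstream of the gamma cluster, the side on which distant enhancers of the beta and gamma genes are known to lie, held 27 regions, or 10.5 per 100 kb, and 21 of them were listed in all 4 libraries. Of these, 11 lay over Diaph1, the formin gene next to the gamma cluster. Peaks there numbered 23 and 23 with siChst7, against 24 and 24 with siControl (two-sided exact permutation p = 1 for the difference of 0.0747 per 10000 peaks). One region, at 38024833 to 38025098, was listed with siControl alone, at fold enrichments of 4.13 and 5.33 and −log10 q values of 5.70 and 10.4. No region here was assigned to an enhancer.

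Over the whole span, 62 of the 90239 regions of the series were found, and 34 of them, or 54.8%, were listed in all 4 libraries, against 62% of all regions. Of the 62 regions, 1 was listed by both siChst7 libraries alone, against 1.24% of all regions, 5 by both siControl libraries alone, against 2.84%, and 10 in 1 library only, against 17.5%. The span held 6.20 ± 0.212 peaks per 10000 with siChst7, against 6.96 ± 0.307 with siControl (SD, n = 2 each), a difference of −0.757 with a two-sided exact permutation p of 0.333, the smallest possible. As a percent of all peaks this difference was −0.00757, and it was −0.00303 with lists of equal length, −0.00342 at a −log10 q of at least 10 and −0.00392 among peaks of at least 200 bp. Of the 34 shared regions, 6 ranked higher in both siChst7 libraries than in both siControl libraries and 8 ranked lower, against background shares of 19.5% and 18.4%, with a median difference of 0.54 percentile points, against 0.07 over all shared regions.

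Among shared regions whose groups did not overlap in rank, the 3 largest differences in each direction lay outside the protocadherin genes, apart from that at Pcdhb17. The region at 38058243 to 38058738 stood at the 36.5 and 38.2 percentiles with siChst7, against 64.5 and 62.4 with siControl, a difference of −26.1 points. Its fold enrichment was 7.73 and 7.70 with siChst7, against 11.3 and 11.2 with siControl, with close replicates in both groups. The region at 38067733 to 38068472 stood at 52.8 and 44.0 with siChst7, against 83.0 and 57.5 with siControl, a difference of −21.9 points that is largest against siControl replicate 1. On the other side, a region in Diaph1 at 37927773 to 37928186 stood at 38.0 and 43.3 with siChst7, against 20.0 and 30.9 with siControl, a difference of 15.2 points. The next 2 without overlap were the region at 38014662 to 38015409, with a difference of 5.65 points, and the region at Fchsd1, with 4.03 points. The region at Arap3 (37984226 to 37984862), with 8.89 points, and that at the start of Pcdhgc3, with 6.21 points, differed by more on average, but their groups overlapped.

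Other gene lists are read against the same 54.1% of genes by the promoter table and 52.7% by either gene end. Of 22 known regulators of the clustered protocadherins, 20 (90.9%) had a start peak in all 4 libraries, among them Ctcf, which marks the loop anchors, Smchd1 and Setdb1, which silence the locus, and the DNA methylation genes. The exceptions, Rad21 and Nipbl of the cohesin machinery, had no peak in any library within 1 kb of either end of the annotated gene, the measure used where the promoter table gives no start. Of 15 signalling partners, such as the kinases Ptk2, Ptk2b and Fyn and the actin regulators of the Wave complex, 11 (73.3%) had a start peak in all 4. Among relatives outside the clusters, 5 of 12 or 41.7% of non-clustered protocadherins (Pcdh1, Pcdh7, Pcdh17, Pcdh18 and Pcdh19) and 3 of 10 or 30% of classical cadherins (Cdh2, Cdh3 and Cdh11) had one. As other gene clusters, 18 of 39 Hox genes (46.2%) and 50 of 53 genes of the main histone cluster (94.3%) had one. Either gene end was used for 5 of the regulators, 9 of the partners, 3 of the non-clustered protocadherins, 7 of the cadherins, 17 of the Hox genes and 3 of the histone genes. None of these lists held a start listed by both siControl or both siChst7 libraries alone. Among the cell type genes, Dcn, a fibroblast gene counted at either gene end, was siControl-only.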

How the data were processed

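The data are 4 peak lists, 1 per ATAC-seq library (2 siChst7, 2 siControl), on mm10. Per the submitters' processing notes, Bowtie, SAMtools, MACS3, bedtools and HOMER were used, without versions, order or roles. Alignment settings, handling of reads that match several places, duplicate removal and the shift of Tn5 cut sites are not given in the sources available, and read totals are unknown. The authors deposited for each peak a score, a fold enrichment (a ratio of summit pileup to local background), a −log10 p-value, a −log10 q-value and a summit offset. The lowest deposited −log10 q was just above 2 in every library. Peaks were listed per library, and replicates were not pooled.

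Peaks on chromosomes 1 to 19, X and Y sharing at least 1 bp were merged into 90239 regions with Python 3.11.15, NumPy 2.4.6, pandas 2.3.3 and SciPy 1.17.1. Figures were drawn with matplotlib 3.10.9. Summit fragments and local background were obtained by solving the deposited fold and −log10 p together. Fold was taken as summit fragments plus 1 over local background plus 1, so a plain ratio of the printed pileups differs from it. The solution matched the deposited p within 0.02 for 98.4% of the peaks in the span. A gene start was open when a peak lay within 1 kb. Starts came from the RefSeq promoter table (build GRCm38.p6) for 17491 genes, and from either gene end for 4335 others, which entered only the gene lists. The table holds 0 entries on chromosome 18, so members' sequences are not shown, and their starts were taken as the lower gene coordinate. The design had foreseen the nearer gene end, which is given as an alternative chosen after seeing the data. Gene names and positions came from RefSeq (GRCm38.p6).

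The single-value tests were exact permutation tests over libraries (2 against 2) and exact sign-flip tests over 4 libraries. Merging of peaks, one-group calls, rank differences and the solved fragments were checked on simulated data, and the permutation tests were not. Named genes were all members with a start peak, the C-type genes, one-group regions, the 3 strongest regions and the 3 largest rank differences in each direction among shared regions whose groups did not overlap. Pcdhgb8, Arap3, further shared gamma regions and Dcn were added after their values were seen. The members and gene lists were chosen with earlier results of these data known. Alternatives were stricter peaks (−log10 q of at least 5 or 10), peaks of at least 200 bp, lists of equal length, other overlaps and start windows, each library left out, and the replicate number as a block.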

Additional observations from a re-analysis of the deposited data

How the results depend on the processing

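Of 133 values recomputed under alternatives, 105 kept to the limits set, 28 moved and 0 turned round. A count kept to them within 1.5 times, and could not turn round. A difference kept to them when its sign held, whatever its size, since its smallest possible p-value was too large to change the label. These numbers therefore do not show that the size of a difference was stable. The siChst7-only regions of the span (1 as listed) numbered 0 at a −log10 q of at least 5, 0 at 10, 0 with lists of equal length and 2 with 200 bp summit windows, and 1 to 3 when 1 library was left out. The siControl-only regions (5 as listed) numbered 3 at a −log10 q of at least 5, 1 at 10, 3 among peaks of at least 200 bp, 1 with equal lists, and 8 to 10 without 1 library, where fewer libraries must meet the condition. The siControl-only beta starts (3) numbered 0 at a −log10 q of at least 10 and 1 with equal lists, and 3 to 4 without 1 library. The gamma starts open in all 4 libraries (2) numbered 1 at a −log10 q of at least 10, 2 to 4 without 1 library (4 without siChst7 replicate 2), and 21 when either gene end counted, all through 1 region at the shared end. Shared regions ranked higher in both siChst7 libraries (6) numbered 12 to 14, and those ranked lower (8) 12 to 13, without 1 library. The other causes were not tested.

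The gamma minus beta difference in fold percentile was −17.9 to −11.3 without 1 library. Medians of alpha starts could not be computed, since no alpha start had a peak. The either-end setting and the alternatives for beta peaks per 10000 and siControl-only beta starts were chosen after seeing the data. The tests of peaks per 10000 in single parts of the span were not in the planned design. Nor was the count of siControl-only beta starts.

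Deviations of same-numbered libraries were nearly uncorrelated (correlation 0.0114 over 55924 shared regions), and replicate numbers were not used as pairs. The labels do not say whether equal numbers share a culture or day, and this correlation does not show it either. With the replicate number as a block, 10 regions ranked higher and 10 lower, and the beta difference of −0.692 and the span difference of −0.757 peaks per 10000 (−0.00757 as a percent of peaks) each had an exact p of 0.5, the smallest that 2 pairs allow.

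Depth limits what can be said of starts with no listed peak: 8 or 9 fragments at the genome-wide background were the fewest listed, and more are needed where the local background is higher.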

Other observations

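Grouping members by promoter type, the 4 genes known to lack the conserved CTCF-bound promoter element (Pcdhac2, Pcdhb1, Pcdhgc4 and Pcdhgc5) had 1 start open in all 4 libraries and 3 in none, and the 53 others had 5 open in all 4, 10 in some and 38 in none. The numbered alpha genes, 12 in all, and the gamma genes other than C-type, 18 in all, had 0 starts open in every library.

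In the beta cluster, regions away from gene starts were few. One lay in the body of Pcdhb14, away from its start, with a fold enrichment of 7.60 in siChst7 replicate 1, against 10.6 and 8.52 with siControl, and with no peak in siChst7 replicate 2. One inside Pcdhb10 was listed in siControl replicate 1 alone, with a fold enrichment of 9.60 and 27 fragments at the summit. Between the alpha and beta clusters a single region had 6.45 in siChst7 replicate 2, against 7.20 and 8.88 with siControl.

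The upper end of Diaph1 had fold enrichments of 13.8 and 14.0 with siChst7, against 14.2 and 15.4 with siControl, and the lower end, facing the gamma cluster, 5.65 and 5.89 with siChst7, against 7.18 and 6.63 with siControl. Among Hox genes with a start peak the median percentile of fold enrichment was 27.9 to 39.0 over the 4 libraries, and in the main histone cluster 46.5 to 49.9.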
